A study of Mus musculus with 32 samples.

Results

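The genes described are 10 genes of tendon, cartilage and bone, out of 43035 genes in the tables, measured in all 8 groups of a mouse muscle study. They were chosen by name and not by a threshold on their values: Runx1, Runx2, Sp7, Sox9, Cilp, Acan, Chad, Scx, Tnmd and Mkx. Earlier results of these data were known when they were chosen. The study put an inducible gene for DUX4, the factor misexpressed in the muscle of people with facioscapulohumeral dystrophy, into mice and sequenced RNA from them and from wild-type (WT) mice. Every mouse, WT included, was fed doxycycline, the drug that switches such genes on. Whole muscle gave 5 DUX4 libraries and 5 WT libraries at 2 weeks (IDUX.2Weeks, WT.2Weeks) and 4 of each at 16 weeks (IDUX.16Weeks, WT.16Weeks). Sorted CD31+ cells, labelled endothelial, gave 4 DUX4 libraries and 3 WT libraries (CD31DUX, CD31WT), and sorted PDGFRa+ cells, labelled fibro-adipogenic progenitors (FAPs, the connective tissue progenitors of muscle), gave 4 and 3 (PDGDUX, PDGWT). Each sorted library came from 75000 hind limb cells. The sources used here do not give the promoter that drives DUX4, what the weeks are counted from, the age, sex and number of animals, which muscles were taken or the time of the sorted samples. The p-values therefore measure the spread between libraries, which may be technical.

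Bone, cartilage and tendon cells arise from mesenchymal progenitors under the control of a few transcription factors. RUNX2 and then SP7 (osterix) drive osteoblast formation, SOX9 drives cartilage formation, and scleraxis (SCX) and mohawk (MKX) drive tendon formation. Their cells secrete matrix proteins such as aggrecan (Acan), chondroadherin (Chad) and cartilage intermediate layer protein (Cilp), and tendon cells carry the membrane protein tenomodulin (Tnmd). In skeletal muscle, RUNX1 is known as a factor switched on in fibres that lose their nerve, and FAPs are known as a source of fibrous, fatty and, in some injuries, bony tissue.

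On the mouse genome (GRCm38), Runx1 lies on the minus strand of chromosome 16 (92601466 to 92826149), Runx2 on the minus strand of chromosome 17 (44495987 to 44814797), Sox9 on chromosome 11 (112782224 to 112787760), Cilp on chromosome 9 (65265180 to 65280605) and Tnmd on chromosome X (133850980 to 133865577). Scx (chromosome 15, 76457452 to 76459458) lies inside Bop1 on the other strand, Chad (chromosome 11, 94565047 to 94569127) inside Acsf2 on the other strand, Runx2 overlaps Supt3 and 3 antisense genes, and Runx1 overlaps the antisense gene Gm26626. Whether strand was used in counting is not stated, so reads of these 4 members may be shared with the genes around them. Promoter sequence, the 250 bases before the RefSeq start of transcription, was at hand for 6 of the 10 members (RefSeq, GRCm38.p6). The promoters of Runx2 and Cilp are shown because these are the 2 members that rose in whole muscle at 16 weeks, and each holds 1 match to the core motif of RUNX proteins (TGTGGT or its complement ACCACA), given in capitals. They run 5′ to 3′, Runx2 from the minus strand at chr17:44814628-44814877 and Cilp from the plus strand at chr9:65264930-65265179.
Runx2: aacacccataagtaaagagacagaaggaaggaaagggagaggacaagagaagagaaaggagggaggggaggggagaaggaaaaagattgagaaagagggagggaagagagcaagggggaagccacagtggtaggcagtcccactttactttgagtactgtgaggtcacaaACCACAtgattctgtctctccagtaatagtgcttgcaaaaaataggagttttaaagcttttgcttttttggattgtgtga
Cilp: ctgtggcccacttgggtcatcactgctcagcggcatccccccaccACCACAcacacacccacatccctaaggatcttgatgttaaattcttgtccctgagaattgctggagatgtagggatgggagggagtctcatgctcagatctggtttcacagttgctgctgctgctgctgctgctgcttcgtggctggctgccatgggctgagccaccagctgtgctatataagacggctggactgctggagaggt
The match begins 80 bases before the start in Runx2 and 205 bases before it in Cilp. An E-box (CANNTG), the motif of SCX and related factors, begins 78 bases before the Runx2 start and overlaps the RUNX match. Of 32536 mouse promoters of this length, 14% held the RUNX core and 66.2% an E-box. Neither promoter of Runx1 held the RUNX core. The long motif bound by DUX4 was in 0.101% of promoters and in 0 of the 7 promoters of the members. A match describes letters only.

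Levels are given in CPM, counts scaled to the size of each library after trimmed-mean normalisation (TMM), and a gene was called higher or lower at a Benjamini-Hochberg adjusted p under 0.05 in edgeR's quasi-likelihood test over all tested genes. Totals ran from 6071276 to 20666816 counts per library, so a count of 0 allows up to 0.494 CPM in the shallowest library and 0.145 in the deepest, taking 3 counts as the limit and counting error only. Wfdc3, a gene known to respond to DUX4 in mouse muscle cells, was at 17.7 to 114 CPM in the 9 DUX4 muscle libraries and at 0 to 0.49 CPM in the 9 WT muscle libraries, while sorted cells held 0 to 0.549 CPM with DUX4 and 0.177 to 1.3 CPM in WT. Pecam1, which encodes CD31, was at 18.1 to 63.7 CPM in FAPs and 855 to 1400 CPM in CD31+ cells, and Pdgfra was at 839 to 1310 CPM in FAPs and 30 to 198 CPM in CD31+ cells. Libraries stood apart in whole muscle at both times. At 2 weeks, replicates 1 to 3 of both genotypes (set A) held 51.2 to 73.5 CPM of the homeobox gene Hoxd8 and replicates 4 and 5 (set B) 4.49 to 5.56 CPM. At 16 weeks, WT.16Weeks replicate 1 held 470 CPM of Fkbp5, a glucocorticoid-responsive gene (24.7 to 57.5 in the other 3), and 209 CPM of Lcn2, an acute-phase gene (0 to 0.233 in the others).

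Cilp, which encodes a matrix protein of cartilage and of fibrotic tissue, was the most abundant member per kilobase of transcript in 6 of the 8 groups. Its level was 870 ± 194 CPM per kb in PDGDUX and 418 ± 152 in PDGWT (SD, n = 4 and 3), and 55.9 ± 9.24 in IDUX.2Weeks and 19.4 ± 15.7 in WT.2Weeks (n = 5 each). In CD31WT the matrix gene Chad was first at 72.6 ± 19.8 CPM per kb, with Cilp at 54.1 ± 7.97 (n = 3), and in WT.16Weeks Scx averaged 5.55 ± 7.35 against 4.31 ± 2 for Cilp (n = 4), through replicate 1. Sp7 and Acan were near the limit of detection. Sp7 had no count in 21 of 32 libraries and at most 0.616 CPM, which was 11 counts, and was too low to test anywhere. Acan had no count in 18 libraries and at most 1.94 CPM, and was tested in sorted cells only. Thus 8 members were tested in whole muscle and 9 in sorted cells.

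The comparison at 2 weeks set DUX4 muscle against WT muscle at the earlier of the study's times. Runx1 and Sox9 were higher with DUX4 and Mkx was lower, while Runx2 and Cilp, higher in each DUX4 library than in any WT library, did not pass the test. Those 3 calls among 8 tested members stand beside 17.6% of all tested genes called (11.2% higher, 6.47% lower). Groups did not overlap for 3 members, Runx1, Runx2 and Cilp, all higher, and for 13.6% of all tested genes (8.95% higher, 4.66% lower). The median log2 fold change was 0.795 over the members tested and -0.0075 over all tested genes.

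Runx1 was at 30.2, 44.2, 31.9, 13.5 and 29.4 CPM in IDUX.2Weeks, against 9.56, 2.93, 4.78, 2.03 and 1.51 CPM in WT.2Weeks. The lowest DUX4 library lay above the highest WT library, and Runx1 rose 7.14-fold (log2 2.84 ± 0.80 SE, adjusted p = 0.0217). The call was narrow: the adjusted p was 0.0522 without IDUX.2Weeks replicate 2, 0.0518 without WT.2Weeks replicate 4, 0.0506 without WT.2Weeks replicate 5 and 0.0646 with no low-count filter, while a term for the 2 sets gave log2 2.95 (adjusted p = 0.0136). Within set A alone the change was 2.55 (0.118) and within set B 3.58 (0.287). Runx2 was at 1.24, 1.43, 1.52, 1.16 and 1.17 CPM in IDUX.2Weeks, against 0.572, 0.325, 0.551, 1.01 and 1.04 CPM in WT.2Weeks (log2 0.88 ± 0.30, adjusted p = 0.0508). All 5 DUX4 libraries were above all 5 WT libraries, and the higher WT values are those of set B, in which the change was 0.19 (adjusted p = 0.91) against 1.45 (0.0195) in set A. Runx2 was called with the term for sets (0.93, adjusted p = 0.0345), in limma voom (0.00794) and without IDUX.2Weeks replicate 4 (0.0472), WT.2Weeks replicate 4 (0.0366) or WT.2Weeks replicate 5 (0.0348). Macrophage markers summed to 60.5 to 149 CPM in IDUX.2Weeks and 27.8 to 93.0 CPM in WT.2Weeks, with overlap, and 2 of the 8 were called higher (1 without IDUX.2Weeks replicate 1, 2, 3 or 5 or WT.2Weeks replicate 3, 4 or 5). Their part in the Runx1 and Runx2 values was not tested.

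Sox9 was at 10.2, 6.97, 7.43, 4.25 and 10.2 CPM in IDUX.2Weeks, against 2.04, 1.63, 2.39, 4.73 and 4.24 CPM in WT.2Weeks. It rose 2.57-fold (log2 1.36 ± 0.40, adjusted p = 0.0277), though the groups met at IDUX.2Weeks replicate 4 and WT.2Weeks replicate 4, both of set B. Leaving out IDUX.2Weeks replicate 1 or 5 or WT.2Weeks replicate 1, 2 or 3 ended the call (adjusted p = 0.0596 to 0.0724), as did no low-count filter (0.0514). In set A alone the change was 1.96 (adjusted p = 0.0212) and in set B 0.69 (0.732). Cilp was at 207, 262, 268, 185 and 267 CPM in IDUX.2Weeks, against 151, 131, 107, 10.6 and 11.4 CPM in WT.2Weeks (log2 1.53 ± 0.58, adjusted p = 0.0777). The DUX4 libraries lay within a narrow band in both sets, while the WT libraries of set B held about the level of 16-week WT muscle. A term for the sets made it a call at log2 2.18 (adjusted p = 0.0104), as did DESeq2 (0.0315), limma voom (0.0228) and leaving out WT.2Weeks replicate 1 (1.87, 0.0481), and within the sets the change was 0.87 in A (0.11) and 4.36 in B (0.0021). The summed level of 10 FAP markers (Pdgfra, Dcn, Lum and others) split the WT libraries the same way, with 731.1 to 1513 CPM in IDUX.2Weeks, against 1697 to 2609 CPM in WT.2Weeks of set A and 651.3 to 688.8 CPM in WT.2Weeks of set B. Its part in the Cilp values was not tested. In whole muscle, fewer cells of a type and less RNA per cell cannot be told apart.

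**Figure D1:**
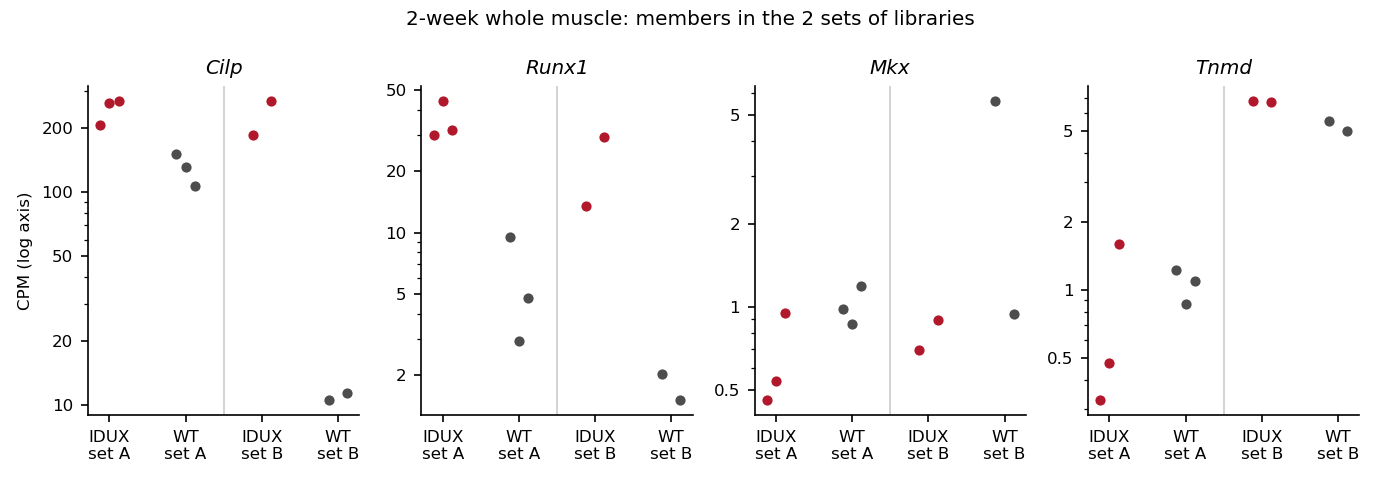
CPM (log axes) of Cilp, Runx1, Mkx and Tnmd in each 2-week muscle library, with DUX4 (red) left of WT (grey) in set A (3 libraries each) and set B (2 each). Cilp in WT muscle is 107 to 151 CPM in set A and 10.6 to 11.4 CPM in set B, Tnmd differs by set in both genotypes, and a single WT library holds 5.61 CPM of Mkx.

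Of the members Mkx, Tnmd and Scx, only Mkx was called at 2 weeks. Mkx, a homeobox factor of tendon, was at 0.458, 0.536, 0.952, 0.696 and 0.898 CPM in IDUX.2Weeks, against 0.98, 0.868, 1.19, 5.61 and 0.943 CPM in WT.2Weeks. The groups overlapped, and the fall (log2 -1.46 ± 0.47, adjusted p = 0.0419) rested on WT.2Weeks replicate 4: without it the value was -0.49 (adjusted p = 0.273). Leaving out any 1 DUX4 library also ended the call (0.0521 to 0.103), as did limma voom (-0.91, 0.14). Tnmd, a membrane protein of mature tendon cells, was at 0.327, 0.477, 1.59, 6.81 and 6.77 CPM in IDUX.2Weeks, against 1.23, 0.868, 1.1, 5.55 and 5 CPM in WT.2Weeks (log2 0.19 ± 0.79, adjusted p = 0.902). Here the libraries differed by set and hardly by genotype. Scx, which encodes the early tendon factor scleraxis, was at 2.94 to 4.01 CPM in IDUX.2Weeks and 1.93 to 6.98 CPM in WT.2Weeks (log2 -0.13 ± 0.59, adjusted p = 0.911), with the DUX4 range inside the WT range. Chad ranged from 0.0654 to 6.58 CPM in IDUX.2Weeks and from 0.245 to 2.23 CPM in WT.2Weeks (log2 0.71 ± 0.94, adjusted p = 0.656), and set B was again the higher one in both genotypes.

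At 16 weeks Cilp and Runx2 were higher in DUX4 muscle, and Runx1 was higher than in 3 of the 4 WT libraries. The 2 calls among 8 tested members compare with 26.6% of all tested genes called (14.1% higher, 12.5% lower). Runx2, Cilp and Tnmd were the 3 members whose groups did not overlap, all higher, beside 27.1% of all tested genes (15.2% higher, 11.9% lower). The median was 1.64 over the members tested and 0.014 over all tested genes.

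Cilp was at 253, 166, 232 and 362 CPM in IDUX.16Weeks, against 11.1, 12.4, 29.6 and 20.2 CPM in WT.16Weeks. Each DUX4 library held several times the highest WT value, and the rise was 13.8-fold (log2 3.79 ± 0.71, adjusted p = 0.00116), kept in every alternative run (adjusted p up to 0.0223). Runx2 was at 3.11, 3.05, 3.37 and 2.89 CPM in IDUX.16Weeks, against 1.17, 0.544, 0.623 and 1.01 CPM in WT.16Weeks. The DUX4 libraries lay close together above all WT libraries, a 3.73-fold rise (log2 1.90 ± 0.33, adjusted p = 0.000606), also kept in every alternative run. Per length, Runx2 stood at 0.351 ± 0.0227 CPM per kb in IDUX.16Weeks and 0.0947 ± 0.0342 CPM per kb in WT.16Weeks (SD, n = 4 each). Sp7, which acts after RUNX2 in osteoblasts, stood at 0 to 0.0431 CPM in IDUX.16Weeks and 0 to 0.113 CPM in WT.16Weeks.

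Runx1 was at 67.4, 33.1, 36.7 and 44.1 CPM in IDUX.16Weeks, against 52.5, 2.25, 3.06 and 2.36 CPM in WT.16Weeks (log2 1.57 ± 0.82, adjusted p = 0.172). The overlap came from WT.16Weeks replicate 1, and without that library Runx1 was called higher at log2 4.12 (adjusted p = 0.000225). Limma voom with quality weights also called it (3.89, 1.46e-05). Macrophage markers were also high in that library, with a sum of 50.3 to 132 CPM in IDUX.16Weeks, against 71.5 CPM in WT.16Weeks replicate 1 and 19.4 to 21.6 CPM in the other 3 WT libraries. Of these 8 markers, 2 were called higher, 7 without WT.16Weeks replicate 1, 1 without IDUX.16Weeks replicate 1 or any other single WT library, and 0 without IDUX.16Weeks replicate 4. Their part in the Runx1 values was not tested. Scx was at 11.7, 4.57, 3.05 and 5.81 CPM in IDUX.16Weeks, against 33.2, 4.04, 4.59 and 2.69 CPM in WT.16Weeks, with the same WT library far above the rest. Bop1, the gene around Scx, was also high in that library, at 58.2 CPM with 20 to 26.2 CPM in the other 3 WT libraries. Scx was not called (log2 -0.83 ± 0.64, adjusted p = 0.362), and its sign turned without the library (0.72, adjusted p = 0.24). Sox9 was at 15.3, 12.8, 10.3 and 13.7 CPM in IDUX.16Weeks, against 24.9, 5.51, 9.68 and 5.89 CPM in WT.16Weeks (log2 0.16 ± 0.42, adjusted p = 0.814). Every DUX4 library was above the other 3 WT libraries and below replicate 1, and limma voom called Sox9 higher (0.73, adjusted p = 0.0215). FAP markers summed to 898.7 to 1521 CPM in IDUX.16Weeks, against 171.5 CPM in WT.16Weeks replicate 1 and 699.6 to 753.4 CPM in the other 3 WT libraries. Of the 10 markers, 3 were called higher with DUX4 (Col3a1, Lum and Col6a3), and 0 without IDUX.16Weeks replicate 4. Satellite cell markers summed to 51.4 to 86.4 CPM in IDUX.16Weeks and 30.8 to 52.8 CPM in WT.16Weeks, with overlap. Of these 6 markers, 3 were called higher (3 to 4 with single libraries left out), beside 14.1% of all tested genes. The part of the FAP and satellite cell markers in the members' values at 16 weeks, the Cilp and Runx2 calls included, was not tested.

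Tnmd was at 9.94, 5.18, 3.62 and 10.2 CPM in IDUX.16Weeks, against 0.13, 2.49, 1.36 and 0.841 CPM in WT.16Weeks. All DUX4 libraries were above all WT libraries, but the call was missed (log2 2.57 ± 0.95, adjusted p = 0.0536), and DESeq2 (0.0189), limma voom (0.00667) and a fit of the 16-week groups alone (0.0262) did call it, as did leaving out WT.16Weeks replicate 2 (3.21, 0.0478). Chad was at 4.62, 5.95, 1.91 and 6.67 CPM in IDUX.16Weeks, against 0, 2.41, 2.55 and 0.673 CPM in WT.16Weeks (log2 1.72 ± 1.03, adjusted p = 0.234), with overlap at IDUX.16Weeks replicate 3. Mkx was at 5.09 to 6.35 CPM in IDUX.16Weeks and 2.86 to 5.89 CPM in WT.16Weeks (log2 0.24 ± 0.47, adjusted p = 0.75), with overlap. In edgeR's interaction test of whether the DUX4 effect differed between 16 and 2 weeks, 0 of 8 members and 0.299% of all tested genes were called, 3 members had an unadjusted p under 0.05 (Cilp, Runx2 and Mkx), and DESeq2 and limma voom also called 0. For Cilp the difference was 2.26 ± 0.86 on the log2 scale (adjusted p = 0.209) and for Runx2 1.02 ± 0.44 (0.248).

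**Figure D2:**
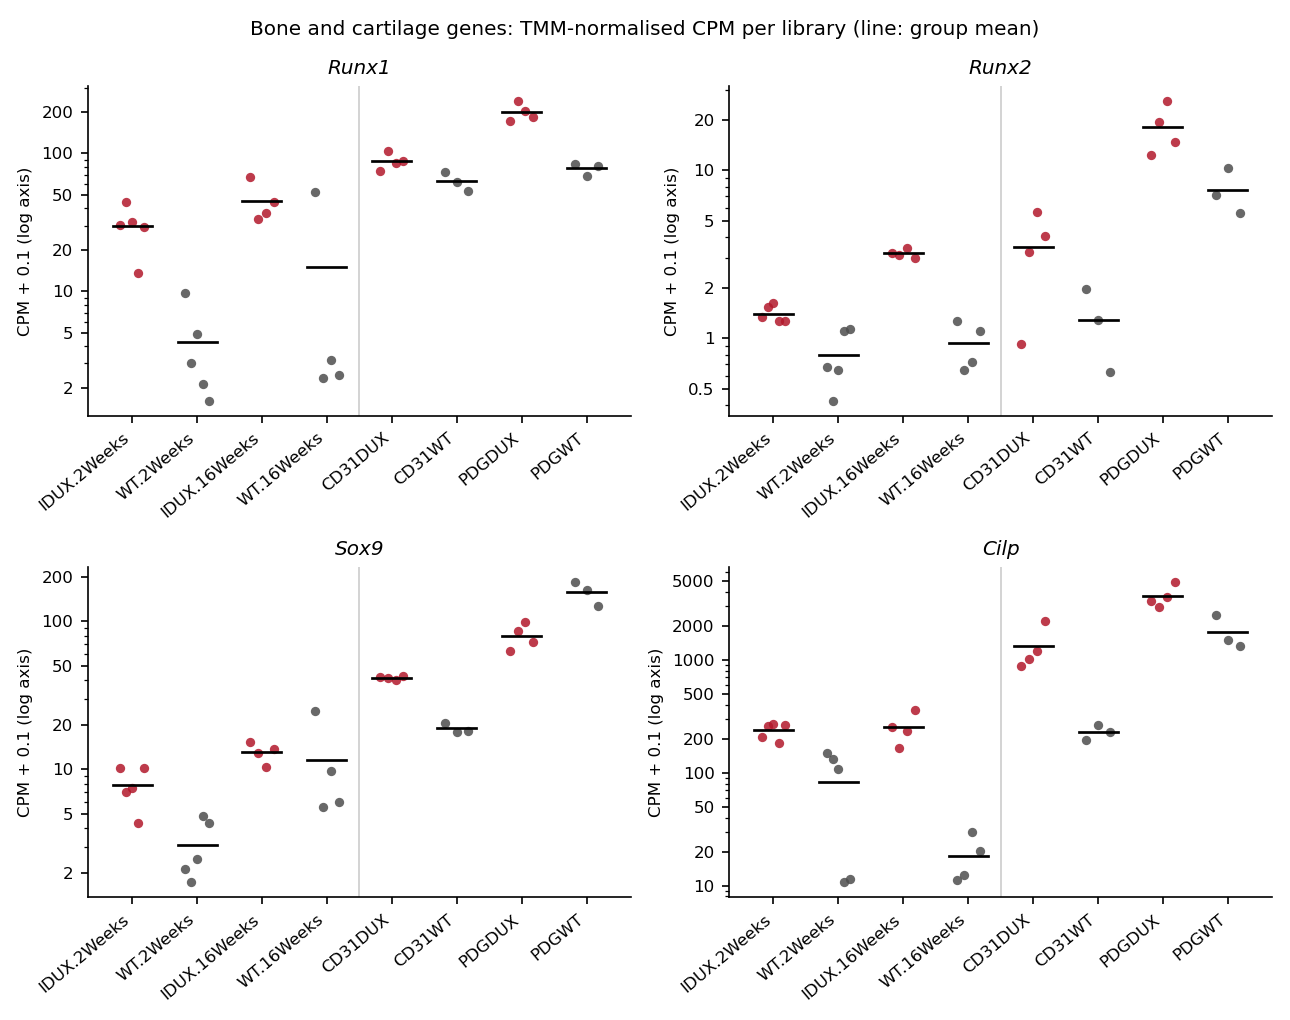
CPM + 0.1 (log axes) of Runx1, Runx2, Sox9 and Cilp per library in the 8 groups, DUX4 groups in red and WT groups in grey, with black lines at group means. In whole muscle the WT.16Weeks library at 52.5 CPM of Runx1 sits among the DUX4 libraries, and in FAPs Sox9 is lower with DUX4 (63.4 to 98.8 CPM) than in WT (127 to 183 CPM) while the other 3 genes are higher.

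The next comparison set sorted CD31+ cells of DUX4 mice against those of WT mice. Cilp and Sox9 were higher with DUX4, 2 calls among 9 tested members beside 5.07% of all tested genes called (3.72% higher, 1.35% lower). Runx1, Sox9, Cilp and Tnmd, 4 members, were higher without overlap between the groups and 1, Acan, was lower, beside 18.1% of all tested genes without overlap (9.89% higher, 8.18% lower). The median was 0.886 over the members tested and -0.0046 over all tested genes.

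Cilp was at 890, 1020, 1200 and 2230 CPM in CD31DUX, against 196, 264 and 230 CPM in CD31WT, a 5.81-fold rise with the groups far apart (log2 2.54 ± 0.32, adjusted p = 0.00022). Sox9 was at 42, 41.3, 39.9 and 42.4 CPM in CD31DUX, against 20.5, 17.9 and 18.2 CPM in CD31WT, a 2.19-fold rise between tight groups (log2 1.13 ± 0.17, adjusted p = 0.00053). Both calls were kept in every alternative run. Markers of FAPs moved with them: the 10 FAP markers summed to 26900 to 31900 CPM in CD31DUX and 8140 to 10800 CPM in CD31WT, with 8 of 10 called higher and none at 0, and FAPs themselves held 138000 to 158000 CPM in PDGDUX and 108000 to 148000 CPM in PDGWT. A ratio to the FAP markers was taken after the data were seen. Per 1000 CPM of FAP markers, Cilp was at 45.2 ± 20.4 CPM in CD31DUX and 25.9 ± 6.89 CPM in CD31WT (SD, n = 4 and 3). These groups were just apart (lowest CD31DUX value 32.1, highest CD31WT value 31.3 CPM). On that scale FAPs held 25.2 ± 7.15 CPM of Cilp in PDGDUX and 13.2 ± 3.48 CPM in PDGWT. Sox9 was at 1.41 ± 0.118 CPM in CD31DUX and 2.08 ± 0.174 CPM in CD31WT, without overlap. A gene that rises less than the marker sum must fall on this scale, so the lower Sox9 value is not a separate result. The part of the FAP-marker RNA in the 2 calls was not tested. Macrophage markers summed to 221 to 347 CPM in CD31DUX and 33.9 to 252 CPM in CD31WT, with overlap. Some other cell types had sums that did not overlap. Endothelial markers were at 4160 to 5060 CPM in CD31DUX and 6080 to 6920 CPM in CD31WT, mural cell markers at 604 to 851 CPM in CD31DUX and 1100 to 1450 CPM in CD31WT, and Schwann cell markers at 88.9 to 119 CPM in CD31DUX and 146 to 218 CPM in CD31WT. Yet 0 of 10 endothelial and 0 of 5 Schwann cell markers were called, with 2 and 3 lower at an unadjusted p under 0.05. Of 8 mural cell markers, 2 were called lower, Acta2 (log2 -1.40 ± 0.23) and Myh11 (-1.68 ± 0.29), and 1 higher, Pdgfrb (1.07 ± 0.16). Muscle fibre markers were higher with DUX4, at 324 to 824 CPM in CD31DUX and 95.8 to 230 CPM in CD31WT. Of these 7 markers 1 was called higher (0 to 2 with single libraries left out). Osteoclast markers, those of cells that resorb bone, were also higher, at 133 to 244 CPM in CD31DUX and 57.1 to 77.9 CPM in CD31WT. Of these 8 markers 3 were called higher (2 to 4 with single libraries left out). The osteoclast sum was higher in FAPs of the same genotype, at 366 to 605 CPM in PDGDUX and 202 to 232 CPM in PDGWT, so it does not measure osteoclasts alone. The part of these markers in the 2 calls was not tested.

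**Figure D3:**
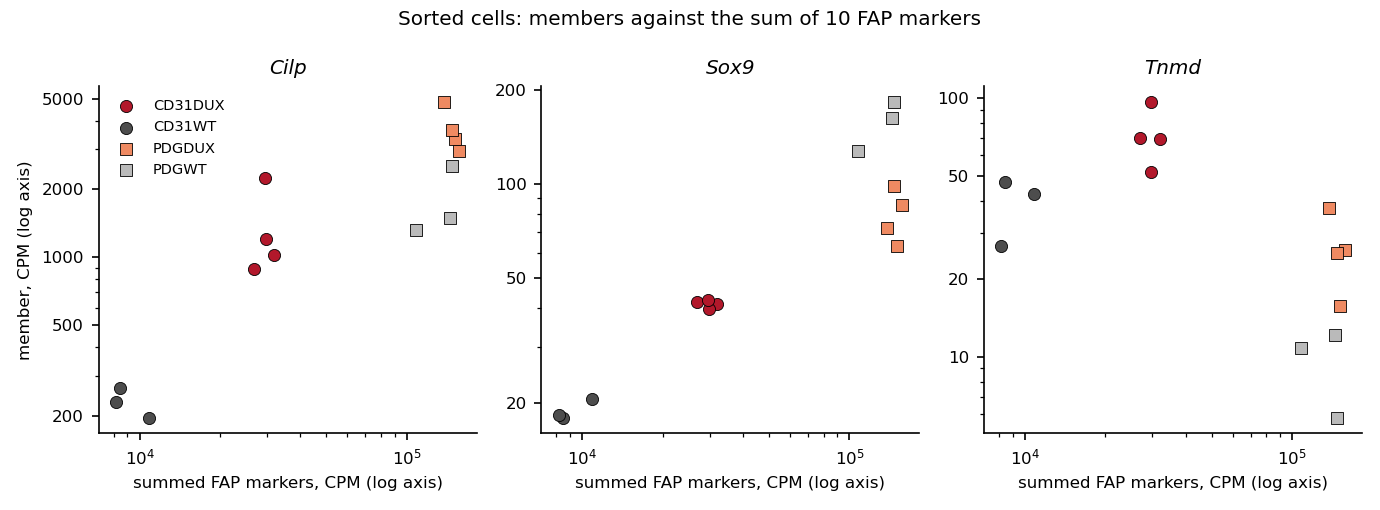
CPM of Cilp, Sox9 and Tnmd against the summed CPM of 10 FAP markers (both axes log) in the 14 sorted libraries, circles for CD31+ cells and squares for FAPs. CD31DUX (26900 to 31900 CPM of markers) lies between FAPs and CD31WT (8140 to 10800 CPM), and within each genotype Tnmd is higher in CD31+ cells than in FAPs.

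Runx1 was at 74.3, 104, 84.9 and 88.6 CPM in CD31DUX, against 73.1, 61.8 and 53.1 CPM in CD31WT (log2 0.49 ± 0.16, adjusted p = 0.0939), the groups just apart. Tnmd was at 69.9, 69.3, 51.6 and 96.8 CPM in CD31DUX, against 42.4, 47.3 and 26.9 CPM in CD31WT (log2 0.89 ± 0.31, adjusted p = 0.121). Both differed by less than the FAP marker sum did, so per 1000 CPM of FAP markers both must be lower with DUX4, which is not a separate result. On that scale Runx1 was at 2.96 ± 0.212 CPM in CD31DUX and 6.87 ± 0.413 CPM in CD31WT, and Tnmd at 2.44 ± 0.655 and 4.28 ± 1.19 CPM, each without overlap. In FAPs, Runx1 was at 1.34 ± 0.162 CPM in PDGDUX and 0.599 ± 0.14 CPM in PDGWT, and Tnmd at 0.178 ± 0.0706 and 0.0745 ± 0.0315 CPM. The part of the FAP-marker RNA in the values of CD31+ cells was not tested. Runx2 was at 0.824, 3.16, 5.58 and 3.96 CPM in CD31DUX, against 1.87, 1.18 and 0.532 CPM in CD31WT (log2 1.5 ± 0.55, adjusted p = 0.146), with overlap through CD31DUX replicate 1, without which it was called (1.83, adjusted p = 0.0307). Per 1000 CPM of FAP markers Runx2 overlapped, at 0.113 ± 0.0657 CPM in CD31DUX and 0.126 ± 0.0549 CPM in CD31WT. Mkx (log2 0.97), Scx (0.80) and Chad (0.19) were not called either, with overlapping groups. Acan was at 0, 0.158, 0 and 0 CPM in CD31DUX, against 1.35, 0.168 and 0.65 CPM in CD31WT (adjusted p = 0.235), levels of a few counts.

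In FAPs, Runx1 and Tnmd were higher with DUX4 and Sox9 was lower. These 3 calls among 9 tested members stand beside 3.0% of all tested genes called (1.23% higher, 1.77% lower). Runx1, Runx2, Cilp and Tnmd, 4 members, were higher in each DUX4 library than in any WT library and Sox9 was lower in each, beside 14.7% of all tested genes without overlap (5.6% higher, 9.13% lower). The median was 1.06 over the members tested and -0.074 over all tested genes.

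Runx1 was at 171, 240, 204 and 183 CPM in PDGDUX, against 84.4, 68.7 and 81.1 CPM in PDGWT. The lowest DUX4 library was above the highest WT library by more than the whole range of the WT group, and Runx1 rose 2.56-fold (log2 1.35 ± 0.16, adjusted p = 0.000208), kept in every alternative run. Sox9 was at 63.4, 85.8, 98.8 and 72.1 CPM in PDGDUX, against 183, 162 and 127 CPM in PDGWT. The groups were apart and Sox9 fell to 0.509 of the WT level (log2 -0.97 ± 0.16, adjusted p = 0.00277), kept in every alternative run. Per 1000 CPM of FAP markers it was at 0.54 ± 0.103 CPM in PDGDUX and 1.18 ± 0.0604 CPM in PDGWT, also without overlap. Tnmd was at 15.7, 25.8, 25.1 and 37.7 CPM in PDGDUX, against 5.81, 12.1 and 10.8 CPM in PDGWT, a 2.72-fold rise (log2 1.44 ± 0.32, adjusted p = 0.0221). Its call was lost without PDGDUX replicate 4 (0.0656), PDGWT replicate 1 (0.107) or PDGWT replicate 3 (0.0556), and in limma voom (0.0668).

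Cilp was at 3320, 2960, 3640 and 4860 CPM in PDGDUX, against 2520, 1490 and 1320 CPM in PDGWT (log2 1.06 ± 0.30, adjusted p = 0.081). Its groups were apart, and it was called in DESeq2 (0.00697), in limma voom (0.0208) and without PDGWT replicate 1 (0.0458). Runx2 was at 12.2, 19.4, 25.8 and 14.7 CPM in PDGDUX, against 7.05, 10.2 and 5.44 CPM in PDGWT (log2 1.25 ± 0.52, adjusted p = 0.257), again apart but not called. Chad (log2 -0.60), Mkx (-0.65) and Scx (1.17) overlapped between the groups and were not called, with Scx at 0.277 to 2.48 CPM in PDGDUX and 0.0618 to 0.715 CPM in PDGWT. Acan was at 0 to 1.94 CPM in PDGDUX and 0 to 0.68 CPM in PDGWT. Endothelial markers summed to 116 to 193 CPM in PDGDUX and 253 to 324 CPM in PDGWT, Schwann cell markers to 10.6 to 23.6 CPM in PDGDUX and 29.5 to 62.1 CPM in PDGWT, and mural cell markers to 506 to 673 CPM in PDGDUX and 419 to 449 CPM in PDGWT, each without overlap. Osteoclast markers, at 366 to 605 CPM in PDGDUX and 202 to 232 CPM in PDGWT, were also apart. Of 10 endothelial and 5 Schwann cell markers, 2 and 1 were called lower. The 8 mural cell markers were mixed, with 1 called higher, Pdgfrb (log2 0.81 ± 0.16), and 2 lower, Myh11 (-1.85 ± 0.31) and Acta2 (-1.22 ± 0.24). The part of these markers in the FAP values was not tested.

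Of the 9 members tested, Sox9 alone had a DUX4 effect that differed between FAPs and CD31+ cells in edgeR (log2 difference -2.11 ± 0.23, adjusted p = 0.000268), where 2.25% of all tested genes were called (0.553% higher, 1.7% lower) and the median over all genes was -0.12. Relative to WT it was 0.509 of the level in FAPs and 2.19-fold in CD31+ cells, and the difference was called in every alternative run. For Runx1 the difference was 0.87 ± 0.22 (adjusted p = 0.0527), called in DESeq2 (0.00859), with relative log expression size factors (0.0409) and without CD31DUX replicate 2 (0.0486), CD31WT replicate 3 (0.044) or PDGDUX replicate 1 (0.0395), and for Cilp it was -1.48 ± 0.42 (0.0878), called in DESeq2 (0.0228). The FAP markers differed too, with a lower DUX4 effect in FAPs than in CD31+ cells called for 7 of 10 (4 without CD31DUX replicate 2 or 3, CD31WT replicate 3, PDGDUX replicate 3 or PDGWT replicate 2). The part of these markers in the Sox9 difference was not tested.

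**Figure D4:**
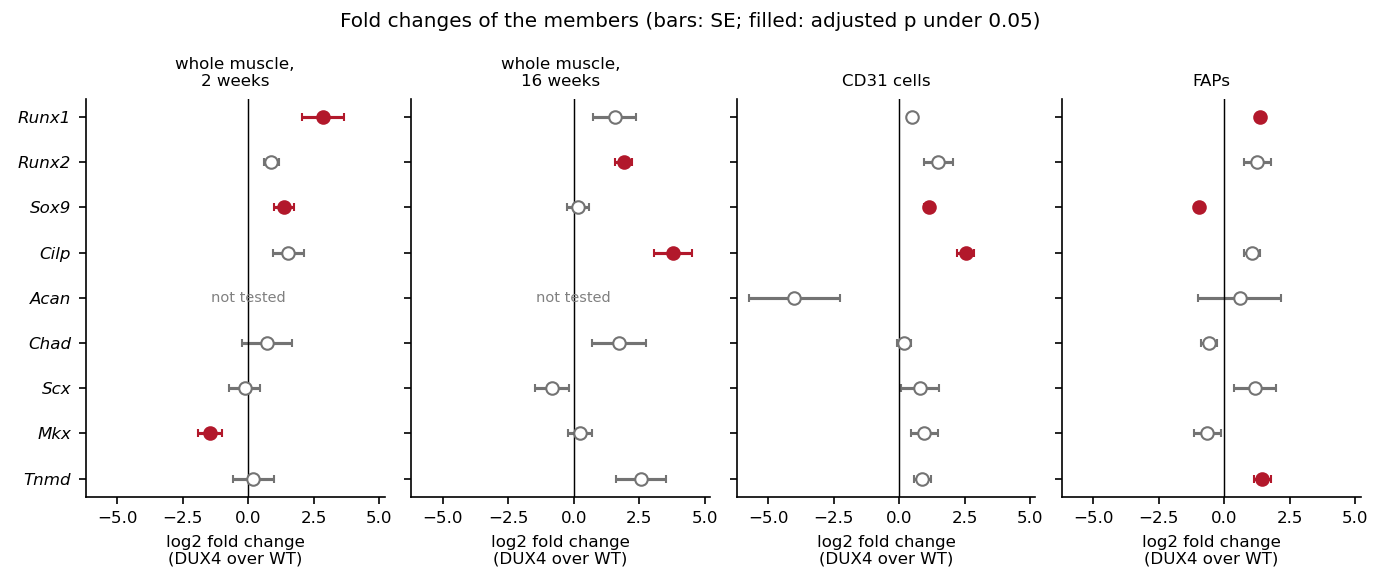
Log2 fold changes (DUX4 over WT, bars SE) of the 9 members tested in at least 1 comparison; filled red points have an adjusted p under 0.05. Sox9 lies at 1.13 in CD31+ cells and -0.97 in FAPs, Cilp lies right of 0 in all 4 panels, and Acan was not tested in whole muscle.

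The last comparison set the 2 sorted populations side by side without DUX4. Over CD31+ cells, WT FAPs were higher in Sox9, Cilp and Runx2 and lower in Chad, Tnmd and Scx, 6 calls among 9 tested members beside 31.1% of all tested genes called (16.7% higher, 14.5% lower). The same 6 were the members without overlap, beside 44.6% of all tested genes (23.6% higher, 21% lower). Sox9 was 8.34-fold higher in FAPs (157 ± 28.5 CPM in PDGWT, 18.8 ± 1.43 in CD31WT, SD, n = 3 each; adjusted p = 2.99e-09), Cilp 7.72-fold (adjusted p = 6.88e-06) and Runx2 6.26-fold (adjusted p = 0.00234). Chad, by contrast, averaged 7.79 ± 2.88 CPM in PDGWT and 122 ± 33.2 CPM in CD31WT (log2 -3.96 ± 0.34, adjusted p = 1.69e-07), Tnmd 9.59 ± 3.33 CPM in PDGWT and 38.9 ± 10.6 CPM in CD31WT (log2 -2.02 ± 0.34, adjusted p = 0.000208), and Scx 0.462 ± 0.351 CPM in PDGWT and 3.64 ± 2.42 CPM in CD31WT (log2 -2.95 ± 0.84, adjusted p = 0.0129, or -2.29 and 0.0623 without CD31WT replicate 2). Of 10 further tendon genes, 6 were higher in FAPs and 2 lower, Fmod (log2 -3.13 ± 0.28) and Kera (-3.06 ± 0.28), which encode the matrix proteins fibromodulin and keratocan. Of 16 tested cartilage genes, 6 were higher and 4 lower, among them Cilp2, a relative of Cilp (-3.91 ± 0.47). Runx1 (log2 0.32, adjusted p = 0.172) and Mkx (-0.32, 0.716) did not pass. Scx had only 1 to 13 counts per library in PDGWT. The CD31+ gate also held satellite cell markers (121 to 159 CPM summed in PDGWT, 364 to 509 in CD31WT) and Schwann cell markers (29.5 to 62.1 in PDGWT, 146 to 218 in CD31WT), with 5 of 6 and 4 of 5 called lower in FAPs. Mural cell markers (419 to 449 CPM in PDGWT, 1100 to 1450 in CD31WT) had 6 of 8 called lower in FAPs and 2 higher (1 without CD31WT replicate 2 or PDGWT replicate 2), and muscle fibre markers (19.0 to 68.9 CPM in PDGWT, 95.8 to 230 in CD31WT) had 6 of 7 called lower. The part of these cell types in the Chad, Tnmd and Scx differences was not tested.

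**Figure D5:**
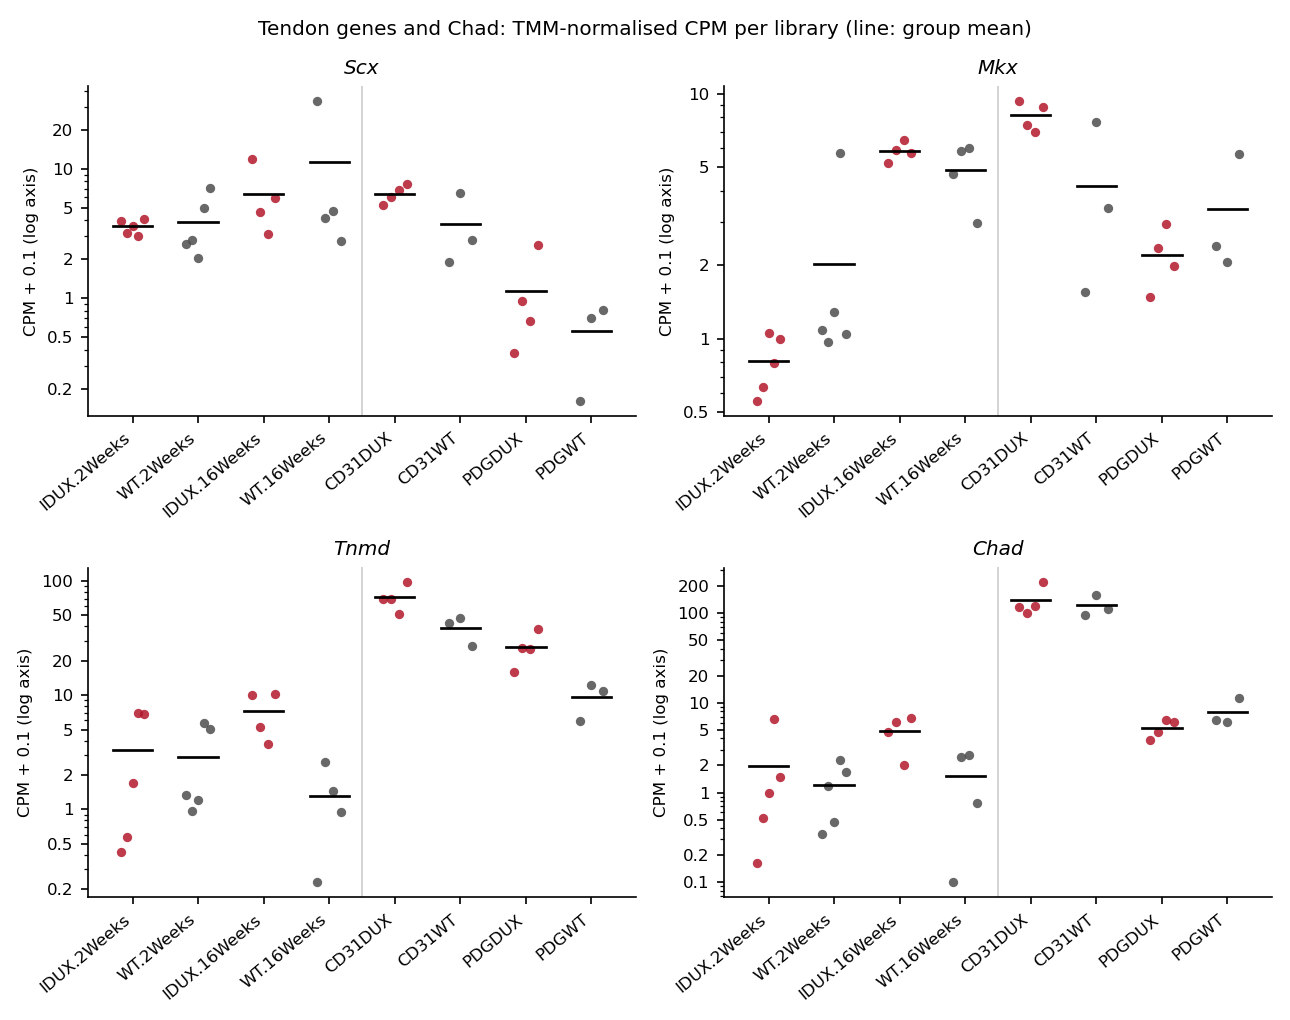
CPM + 0.1 (log axes) of Scx, Mkx, Tnmd and Chad per library in the 8 groups, DUX4 groups in red and WT groups in grey, with black lines at group means. Chad is far lower in FAPs (3.78 to 11.1 CPM) than in CD31+ cells (95.9 to 219 CPM), Tnmd is lower in FAPs than in CD31+ cells of the same genotype, and 1 WT.16Weeks library holds 33.2 CPM of Scx.

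Ordered by mean level in sorted cells, Sox9 ran PDGWT (157 CPM), PDGDUX (80.0), CD31DUX (41.4) and CD31WT (18.8), with every neighbouring pair apart in its ranges. Runx1 ran PDGDUX, CD31DUX (87.8), PDGWT (78.1) and CD31WT (62.7), and of these neighbours PDGDUX and CD31DUX were apart and the others overlapped. Cilp ran PDGDUX, PDGWT, CD31DUX and CD31WT, with overlap between PDGWT and CD31DUX. In whole muscle, Runx2 had a single step without overlap, between IDUX.16Weeks (3.1 CPM) and IDUX.2Weeks (1.31), and Cilp also had 1, between IDUX.2Weeks (238) and WT.2Weeks (82.3).

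Further genes of the 3 tissues were followed in lists drawn up from background knowledge, with earlier results of these data known. Their counts and medians are therefore a description and not an independent test. Of 10 tendon cell genes, 2 rose at 2 weeks, 5 at 16 weeks, 4 in CD31+ cells and 2 in FAPs, and none fell in these comparisons (medians 0.38, 1.90, 0.91 and 0.13, with -0.01, 0.01, -0.0046 and -0.07 over all tested genes). Over all tested genes, 11.2%, 14.1%, 3.72% and 1.23% were called higher in the same order. Thbs4, a matrix glycoprotein of tendon and muscle attachment, rose in all 4: by log2 1.20 ± 0.25 at 2 weeks, 3.10 ± 0.30 at 16 weeks, 1.68 ± 0.18 in CD31+ cells and 1.58 ± 0.18 in FAPs (adjusted p = 0.0036, 5.03e-06, 2.64e-05 and 0.00012). Its effect was larger at 16 than at 2 weeks (log2 difference 1.89 ± 0.38, adjusted p = 0.0438), a call that held without WT.2Weeks replicate 2 or 3 or IDUX.16Weeks replicate 2 and was lost without any other single library. Tnc, which encodes tenascin C, rose by 1.90 ± 0.37, 2.56 ± 0.44, 1.65 ± 0.31 and 1.91 ± 0.32 in the same order. Without WT.16Weeks replicates 1 and 4 the list had 3 higher at 16 weeks in place of 5, and set B of the 2-week libraries alone gave 0 in place of 2.

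Of 11 tested cartilage genes, 2 rose at 2 weeks and 5 rose and 2 fell at 16 weeks (medians -0.04 and 0.66). Of all tested genes, 11.2% were called higher and 6.47% lower at 2 weeks, and 14.1% higher and 12.5% lower at 16 weeks. Col11a1, a fibrillar collagen of cartilage, rose by log2 2.44 ± 0.48 at 2 weeks and 3.68 ± 0.59 at 16 weeks (adjusted p = 0.00206 and 0.000361), and Prg4, the joint lubricant lubricin, by 2.54 ± 0.36 and 1.55 ± 0.38 (0.000119 and 0.00683). Col10a1, the collagen of hypertrophic cartilage, rose by 4.37 ± 0.83 at 16 weeks (adjusted p = 0.00121), as did the matrix genes Cilp2 (2.65 ± 0.86, 0.0314) and Comp (2.17 ± 0.76, 0.042). The 2 that fell were Sox6, a partner of SOX9 in cartilage that is also active in muscle fibres (-3.30 ± 1.17, 0.0456), and Col9a1, a cartilage collagen (-4.79 ± 1.61, 0.0369). These 4 were named after their values were seen. The 16-week count of risen genes was 3 without IDUX.16Weeks replicate 1 or 4 or WT.16Weeks replicate 1 or 4, and no gene fell without IDUX.16Weeks replicate 1, 2 or 3 or WT.16Weeks replicate 2 or 3. In sorted cells 16 cartilage genes were tested and edgeR called 0 in CD31+ cells (2 at an unadjusted p under 0.05) and 0 in FAPs (5). DESeq2 and limma voom also called 0 in CD31+ cells, while in FAPs DESeq2 called 1 higher, limma voom 1 lower, and edgeR 1 higher without PDGDUX replicate 1 or PDGWT replicate 1. Of 9 tested bone genes, edgeR called 0 at 2 weeks (2 at an unadjusted p under 0.05, 1 higher by DESeq2 and 1 higher without IDUX.2Weeks replicate 4) and 4 rose at 16 weeks (median 1.20), among them the type I collagen genes Col1a1 (log2 2.18 ± 0.40, adjusted p = 0.000935) and Col1a2 (1.86 ± 0.42, 0.00417) and Dmp1, a matrix protein of bone cells (2.26 ± 0.55, 0.00612). Limma voom called 1 bone gene higher and 1 lower at 2 weeks. In sorted cells Col1a1 (1.06 ± 0.26, 0.0263) and Col1a2 (1.26 ± 0.21, 0.00159) rose with DUX4 in CD31+ cells, 2 of 10 tested bone genes, with 1 left without CD31DUX replicate 1, 2 or 3. In FAPs 1 fell, Alpl, the alkaline phosphatase of mineralising cells (-1.20 ± 0.25, adjusted p = 0.0143), and 0 fell without PDGDUX replicate 4 or PDGWT replicate 2. Of all tested genes, 5.07% were called in CD31+ cells (3.72% higher) and 3.0% in FAPs (1.77% lower).

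Genes that act with or upstream of the members moved in both directions. Of 5 tested RUNX partners, 1 rose and 1 fell at each time. For this and the next lists, 11.2% of all tested genes were called higher and 6.47% lower at 2 weeks. At 16 weeks the shares were 14.1% higher and 12.5% lower, and in FAPs 1.77% were lower. Cbfb, the obligate partner subunit of RUNX proteins, fell by 1.23 ± 0.23 on the log2 scale at 2 weeks and by 1.45 ± 0.26 at 16 weeks (adjusted p = 0.0016 and 0.000885), with log2 0.52 ± 0.17 (0.0902) in CD31+ cells and 0.31 ± 0.16 (0.409) in FAPs. The corepressor genes Tle4 (0.76 ± 0.17, 0.00565, at 2 weeks) and Tle3 (0.84 ± 0.22, 0.00989, at 16 weeks) were those that rose. Of 11 tested morphogens and inhibitors, Pthlh, which encodes a regulator of growth plate cartilage, rose at 2 weeks (log2 2.91 ± 0.79, adjusted p = 0.017), with 0 called without IDUX.2Weeks replicate 2, 2 without WT.2Weeks replicate 2 and 3 without IDUX.2Weeks replicate 4. Gdf6 and Gdf5, growth factors of joint and tendon formation, rose at 16 weeks (log2 4.23 ± 0.94 and 3.36 ± 0.99), and 1 list gene was called without IDUX.16Weeks replicate 1 or WT.16Weeks replicate 2 or 3. In CD31+ cells 1 list gene was called, Gdf6, which was higher (log2 7.85 ± 1.23, adjusted p = 0.00142), beside 3.72% of all tested genes. Bmp2 and Bmp7, which encode bone morphogenetic proteins, fell in FAPs (log2 -1.34 ± 0.16, adjusted p = 0.000205, and -3.32 ± 0.59, 0.00785). The DUX4 effect was lower in FAPs than in CD31+ cells for 2 list genes, Gdf6 (log2 difference -8.44 ± 1.41, adjusted p = 0.00601) and Bmp2 (-1.38 ± 0.23, 0.00381), beside 1.7% of all tested genes. Of 11 genes of denervated or regenerating fibres, 6 rose at each time, including Chrnd, the delta subunit of the acetylcholine receptor (log2 1.56 ± 0.32 and 2.19 ± 0.35), and Ncam1 (1.40 ± 0.26 and 1.38 ± 0.29). The count was 3 at 2 weeks without IDUX.2Weeks replicate 2 or WT.2Weeks replicate 4 or 5, and 3 at 16 weeks without IDUX.16Weeks replicate 1 or WT.16Weeks replicate 2 or 3. Muscle fibre markers such as Ckm and Myh4 moved with the muscle comparisons, 6 of 7 lower at 2 weeks (3 without IDUX.2Weeks replicate 1 or 2) and 4 at 16 weeks, with summed levels of 51900 to 108000 CPM in IDUX.2Weeks and 108000 to 129000 CPM in WT.2Weeks, and 46900 to 75800 CPM in IDUX.16Weeks and 107000 to 131000 CPM in WT.16Weeks. Their part in the members' changes was not tested.

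Of the osteoclast markers, those of the cells that resorb bone, 1 of 7 tested rose at 2 weeks, 2 of 7 at 16 weeks, 3 of 8 in CD31+ cells and 2 of 8 in FAPs, where 1 rose without any single library other than PDGDUX replicate 1. Over all tested genes, 11.2%, 14.1%, 3.72% and 1.23% were called higher in the same order. Dcstamp rose at 2 weeks (log2 7.21 ± 1.17, adjusted p = 0.000404) and at 16 weeks (4.73 ± 1.09, 0.00462). It also rose in CD31+ cells (8.48 ± 1.66, 0.0107) and narrowly in FAPs (6.83 ± 1.66, 0.0497), with no count in CD31WT or PDGWT. Ctsk, which encodes cathepsin K, rose at 16 weeks (log2 3.21 ± 0.54, adjusted p = 0.00052), in CD31+ cells (2.38 ± 0.22, 8.24e-06) and in FAPs (1.10 ± 0.21, 0.00813). In WT it was higher in FAPs than in CD31+ cells (2.99 ± 0.23, 5.88e-08), as was Acp5 (1.46 ± 0.47, 0.024), while Tnfrsf11a was lower (-4.05 ± 0.62, 9.97e-05). Of the 8 markers, 2 were thus higher (1 to 3 with single libraries left out) and 1 lower, beside 16.7% and 14.5% of all tested genes. The list therefore does not mark osteoclasts alone in these cells. Across the 8 group means of log2(CPM + 0.5), centred within whole muscle and within sorted cells, the expression patterns most like the members' were those of Ttc39b for Runx1 (Pearson r = 0.982), Mcfd2 for Runx2 (0.992), Gprasp1 for Sox9 (0.981), Tmem106a for Cilp (0.994), Tox2 for Chad (0.993), Rilpl2 for Scx (0.982), Cenpl for Tnmd (0.988) and Gm37435 for Mkx (0.939). These are the best of 12925 genes over 8 points from shared libraries, and they are given as a description.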

How the data were processed

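RNA from 18 whole muscle and 14 sorted cell libraries was sequenced as paired 50-base reads. Whole muscle libraries were made from 500 ng RNA with a KAPA mRNA kit, and sorted cell libraries with a low-input amplification kit and Nextera XT, per the labels' protocols. The authors deposited 1 table of estimated counts (expected counts) per library, made with Salmon 0.6.0 after CASAVA 1.8 on mm10, per the submitters' processing notes. The annotation release, the step from transcripts to genes and the use of strand are not stated. The 2 kits differ, so whole muscle and sorted cells were fitted separately.

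Of 43035 gene IDs, 42459 were matched to a symbol (GENCODE M21). Expected counts were rounded and tested with edgeR 4.0.16 in R 4.3.3 (TMM normalisation, a minimum count of 10 by filterByExpr, robust quasi-likelihood, 1 mean per group). P-values were adjusted by Benjamini-Hochberg over all tested genes, with calls under 0.05. An SE is the absolute log2 fold change over the square root of F. On simulated independent counts the median estimates lay near the known changes. That simulation held no sets of libraries and no deviant library, so it does not bear on calls that turn on these. Depth was 6071276 to 20666816 counts per library.

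Alternatives were DESeq2 1.42.0, weighted limma 3.58.1 voom, size factors by relative log expression, no filter, a minimum count of 30, only the groups compared, the 2 sets of 2-week libraries as a model term or each alone, WT.16Weeks libraries 1 and 4 left out, and each library left out in turn. Named genes are all members, up to 3 called genes with the smallest p per list and comparison, and the genes most like each member. The members and lists were chosen with earlier results of these data known. RefSeq promoters were those of GRCm38.p6, of which the 250 bases before the start were searched. The human DUX4 transgene itself was not analysed here.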

Additional observations from a re-analysis of the deposited data

Results flagged for a closer look

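In groups of 4 or 5 libraries, 5 of 50 combinations of member and group held a library whose gap to the rest was large for the group's range by Dixon's criterion, which chance meets in about 5% of groups. WT.16Weeks replicate 1 stood out for Runx1, at 52.5 CPM with 2.25 to 3.06 CPM in the other 3 WT libraries, and for Scx, at 33.2 CPM with 2.69 to 4.59 CPM in the others. WT.2Weeks replicate 4 stood out for Mkx, at 5.61 CPM with 0.868 to 1.19 CPM in the other 4. IDUX.2Weeks replicate 4 stood out for Chad, at 6.58 CPM with 0.0654 to 1.38 CPM in the other 4. CD31DUX replicate 2 stood out for Acan, at 0.158 CPM with 0 CPM in the other 3, a matter of a few counts.

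The DUX4 effect on Sox9 differed between FAPs and CD31+ cells by the interaction test (log2 difference -2.11, adjusted p = 0.000268 in edgeR). All 4 PDGDUX libraries were below all 3 PDGWT libraries and all 4 CD31DUX libraries were above all 3 CD31WT libraries.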

How the results depend on the processing

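Of 60 tests of a member in a comparison, 17 passed in edgeR. Over 243 alternatives of these 17, the call was kept in 214 and lost in 29, with no change of sign, and 12 of the 17 were kept in every alternative run. At 2 weeks 2 members were called higher, against 4 in limma voom, 4 with a term for the 2 sets, 0 with no low-count filter, 1 in set B alone and 1 to 3 when single libraries were left out. The 1 called lower became 0 in limma voom, with no filter, with only the groups compared and in set A or B alone, and 0 to 1 with single libraries left out. At 16 weeks limma voom called 5 higher in place of 2. In FAPs 1 to 2 were higher with single libraries left out. For the difference between FAPs and CD31+ cells, DESeq2, relative log expression size factors and a minimum count of 30 each called 1 higher in place of 0 (0 to 1 with single libraries left out), and DESeq2 called 2 lower in place of 1.

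Signs turned in 36 alternatives, all of values that were not called, and the cause was not tested. At 2 weeks limma voom gave log2 -0.43 for Chad, 0.18 for Scx and -0.64 for Tnmd, set A alone gave -0.30, 0.49 and -0.48 for the same genes, and the term for sets gave -0.04 for Tnmd. At 16 weeks limma voom gave 0.53 for Scx, and leaving out WT.16Weeks libraries 1 and 4 gave 0.54 for Scx and -0.04 for Mkx. For the difference between the times, limma voom gave 0.90 for Runx1 and 0.35 for Scx, and leaving out those libraries gave 1.24 and 0.68. For Acan in FAPs limma voom gave -0.19. With single libraries left out the ranges were -0.70 to 1.17 for Chad, -0.30 to 0.20 for Scx and -0.32 to 0.63 for Tnmd at 2 weeks, and -0.08 to 0.87 for Sox9 and -1.33 to 0.72 for Scx at 16 weeks. They were -1.85 to 1.29 for Runx1 and -1.20 to 0.85 for Scx in the difference between times, -0.09 to 0.48 for Chad in CD31+ cells and -0.01 to 1.08 for Acan in FAPs. They were -0.70 to 0.13 for Runx2 and -0.52 to 0.84 for Scx in the difference between cell types, and -1.24 to 0.04 for Acan and -0.94 to 0.45 for Mkx in WT FAPs over WT CD31+ cells. Leaving out WT.16Weeks replicate 1 turned the sign of Scx at 16 weeks and of Runx1 and Scx in the difference between times. No paired analysis was possible because the labels give no replicate numbers, and those used here follow accession order. Depth limits Sp7 and Acan most, which lie near the level that 3 counts give. Low counts also limit other members in some groups. Runx2 had 3.28 to 6.79 counts in the WT.2Weeks libraries of set A, and Scx 1 to 13 counts in PDGWT. In WT.16Weeks replicate 1 Tnmd had 2 counts and Chad 0.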
